A study of Mus musculus with 6 samples.

Results

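Biliary epithelial cells line the bile ducts and are held to one another by cadherin-based junctions. The genes described here encode the cadherins, protocadherins and desmosomal cadherins that cross the membrane at such junctions and the catenins that bind them inside the cell. Members were the rows of the deposited table whose gene symbol belongs to the Cdh, Pcdh, Celsr, Fat, Dsg or Dsc families or to the alpha-, beta-, delta- or gamma-catenins (gamma-catenin is Jup). Cdh5, the endothelial cadherin, was set aside as an endothelial marker. The rule used names and no measured values, and it found 97 of 25302 gene rows. The study measured total RNA of mouse liver biliary epithelial cells, after ribosomal RNA depletion, in 3 Control and 3 Sox9cKO samples. All 6 samples carry the floxed Sox9 genotype Sox9fl/fl. The Sox9cKO samples carry AlbCre+/- as well, and the Control samples are given as Sox9fl/fl with no Cre. The Alb promoter drives Cre in hepatocytes and in the embryonic liver cells from which both hepatocytes and bile duct cells arise, so deletion is not limited to the bile duct. The labels used here give no age, sex or isolation method, and nothing states that the replicates came from separate animals or cultures, so p-values measure the spread between these samples.

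Values are normalized reads, meaning reads divided by one size factor per sample. The 6 libraries held 11883496 to 16191990 reads. The targeted gene followed its labels: Sox9 stood at 6211, 6043 and 6293 normalized reads in Control and at 3363, 3165 and 3340 in Sox9cKO, 53.2% of the Control mean (limma adjusted p = 0.00501). The 10 biliary markers summed to between 135295 and 197438 normalized reads in every sample. The 10 endothelial markers (Pecam1, Cdh5, Kdr, Stab2 and others) differed far more between samples, with sums of 11637, 36668 and 1672 in Control and 29162, 37568 and 6009 in Sox9cKO, and none was at 0. In bulk RNA, fewer cells of a type and less RNA per cell cannot be told apart.

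Classical cadherins bind each other across the gap between neighbouring cells, and their tails recruit beta-catenin, delta-catenin and, through beta-catenin, alpha-catenin, which links the complex to actin. Desmosomes follow the same plan with desmogleins and desmocollins outside and plakoglobin (Jup), plakophilins and desmoplakin inside, anchored to keratin filaments. Fat and Celsr proteins are very large cadherins known for their part in cell polarity and growth control. Protocadherins are best known in the nervous system, where 3 gene clusters (Pcdha, Pcdhb, Pcdhg) give neurons different surface identities.

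Per kb of exon, the junction genes of a simple epithelium led. E-cadherin (Cdh1), the main adhesion molecule of epithelial cells, had the highest level, 7530 ± 930 normalized reads per kb in Control and 6605 ± 524 in Sox9cKO (SD, n = 3 each). Desmoglein 2 (Dsg2) came next with 2447 ± 244 and 3074 ± 494 per kb. Beta-catenin (Ctnnb1) had 2039 ± 172 and 2338 ± 307 per kb, and alpha-E-catenin (Ctnna1) 1869 ± 127 and 1994 ± 257 per kb. The values of these neighbours overlap, so the order of Ctnnb1 and Ctnna1 does not exceed their spread. Fat1 came after these over all samples, with 863 ± 122 per kb in Control, beside Jup at 833 ± 104, and 2560 ± 895 per kb in Sox9cKO, beside Ctnnb1. Jup, Cdh6, Celsr1, Cdh3, Dsc2 and Ctnnd1 followed. N-cadherin (Cdh2) was low, at 17.5 ± 0.61 and 38.4 ± 16.1 per kb.

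**Figure D1:**
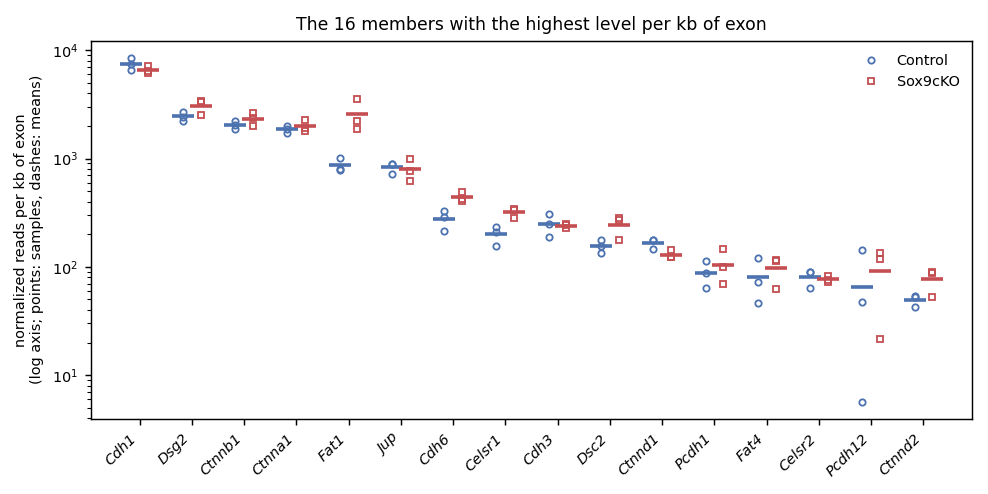
Level per kb of exon (log axis) of the 16 members with the highest mean over all samples, protocadherin clusters left out; open circles are Control samples, open squares Sox9cKO samples, and dashes the group means. The Sox9cKO samples of Fat1, Cdh6, Celsr1 and Dsc2 lie above all Control samples of the same gene, with the widest gap for Fat1, while the samples of Cdh1 overlap.

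Of the 97 members, 68 had a mean of at least 10 normalized reads and were tested, by limma on log2(value + 1) with adjustment over all 17153 genes that passed the same filter. Fat1 and Cdh17 rose in Sox9cKO and no member fell at an adjusted p under 0.05, which is 2 of 68 members (2.94%) against a background of 2.97% of all tested genes (2.03% higher, 0.939% lower). The members' share is thus near that of genes in general. edgeR without a block called the same 2 members, against 2.86% of all genes (1.82% higher, 1.04% lower). At an unadjusted p under 0.05 there were 18 members (13 higher, 5 lower), against 17.8% of all genes.

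Samples that bear the same replicate number in their titles deviated together, so a second fit that took this number as a block (the block fit) was set beside the first. In the block fit 12 of 68 members (17.6%) were called, 10 higher and 2 lower, against 8.05% of all genes (5.06% higher, 2.99% lower). The genes added were Cdh16, Dsc3, Cdh26, Celsr1, Cdh6, Cdh4, Cdh13 and Ctnnd2, which rose, and Ctnna2 and Celsr3, which fell. DESeq2 on the recovered reads called 9 members, 8 higher and 1 lower, against 7.08% of all genes (4.20% higher, 2.87% lower). edgeR with the block called 10 members, 9 higher and 1 lower, against 6.76% (3.87% higher, 2.89% lower). The block fit, edgeR with the block and DESeq2 had 8 called members in common: Fat1, Cdh17, Cdh16, Dsc3, Cdh26, Celsr1 and Cdh6 higher, and Ctnna2 lower. In 15 members the 3 Control and the 3 Sox9cKO values did not overlap, 10 higher and 5 lower in Sox9cKO, and 24.2% of all tested genes have groups that do not overlap (13.4% higher, 10.8% lower).

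The calls lay outside the protocadherin clusters. The 39 tested members outside them had a median log2 fold change of 0.32, and all 12 members called with the block were among these. The 29 tested cluster members had a median of 0.0051, and the median of all tested genes was 0.04.

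**Figure D2:**
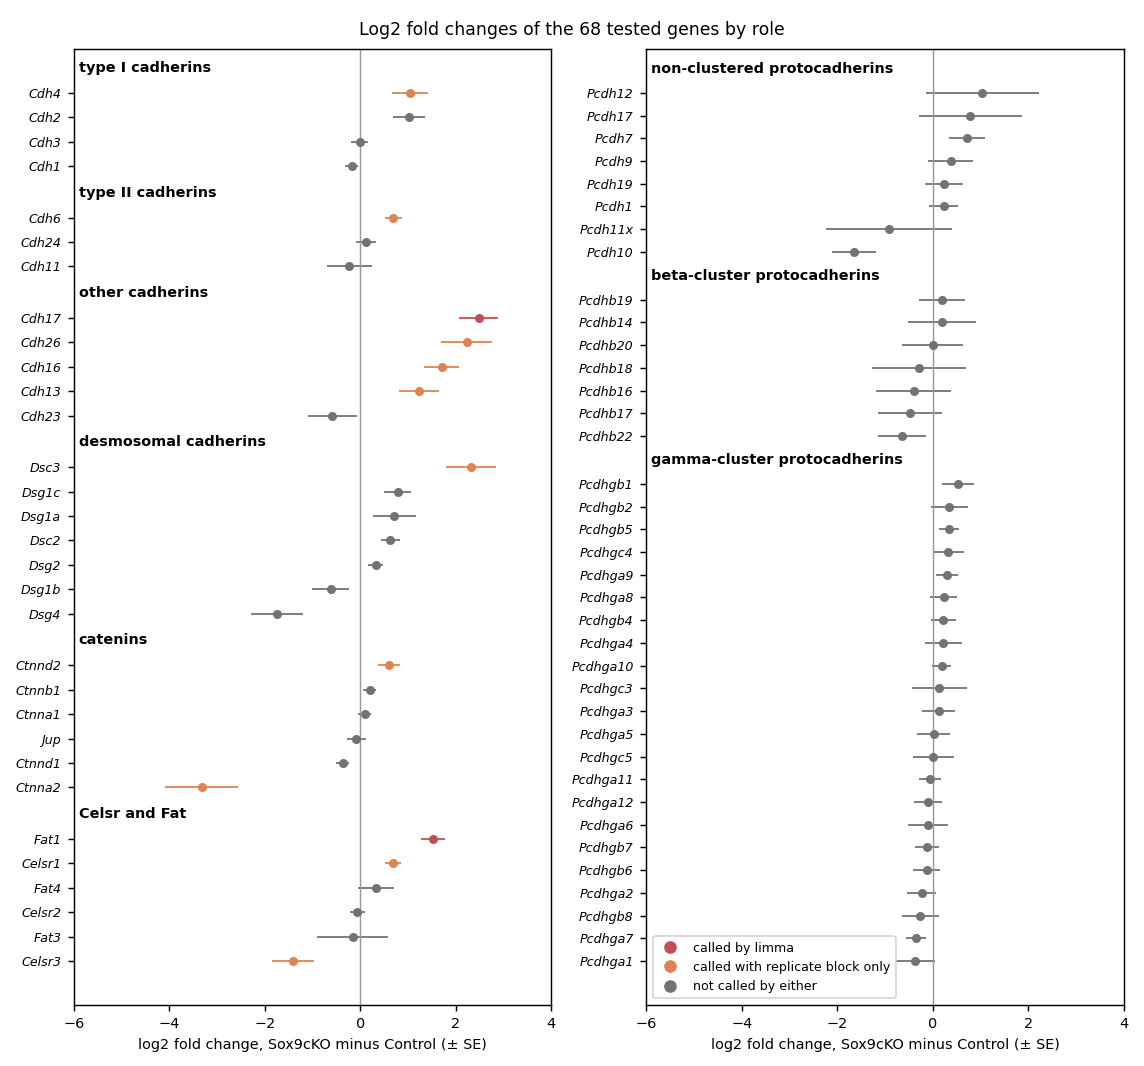
Log2 fold change (Sox9cKO minus Control) with its limma standard error for the 68 tested members, grouped by role; red marks a limma call, orange a call with the replicate block only. The cluster protocadherins in the lower right hold no call and lie between -0.65 and 0.52.

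Among the 6 tested Fat and Celsr genes, Fat1 rose by limma, Celsr1 rose and Celsr3 fell with the block, and 3 were not called. Fat1, a giant cadherin that acts on actin dynamics, polarity and Hippo signalling, had 12615, 12221 and 15714 normalized reads in Control and 29319, 34987 and 55910 in Sox9cKO. Every Sox9cKO value was above every Control value, and the lowest of them was Sox9cKO replicate 1. The mean was 2.96-fold higher (log2 fold change 1.52, SE 0.25, 95% interval 1.93- to 4.28-fold, limma adjusted p = 0.0223). Fat1 gave 11.3%, 11.7% and 13.0% of all normalized reads of the 97 members in Control and 21.1%, 25.3% and 34.3% in Sox9cKO (exact permutation test, two-sided, p = 0.1, the smallest that 3 against 3 samples allow). All members together summed to 112319 ± 8529 normalized reads in Control and 146510 ± 14124 in Sox9cKO (SD, n = 3), and without Fat1 to 98802 ± 6781 and 106438 ± 3155.

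The call for Fat1 was kept in all 10 alternative fits that used the 6 samples, but in 2 of the 6 fits that left out a sample; its adjusted p was 0.114 without Control replicate 1, 0.0635 without Control replicate 2, 0.0611 without Control replicate 3 and 0.0548 without Sox9cKO replicate 2. The log2 fold change stayed between 1.25 and 1.72. In the reference annotation 3.11% of the exon bases of Fat1 are shared with an antisense gene, Gm2366, which had 18.4 to 48.7 normalized reads.

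Celsr1, a core protein of planar cell polarity, had 2555, 1720 and 2311 normalized reads in Control and 3681, 3136 and 3727 in Sox9cKO. The groups did not overlap, and the mean was 1.60-fold higher. The difference was not called by limma (adjusted p = 0.0854) and was called with the block (adjusted p = 0.0129). Celsr3, its relative known from axon guidance, went the other way: 51.3, 53.8 and 66.8 normalized reads in Control and 13.9, 15.1 and 41.9 in Sox9cKO. Its mean was 2.42-fold lower, with adjusted p = 0.155 in limma and 0.0482 with the block, while edgeR with the block (0.0594) and DESeq2 (0.103) did not call it. Celsr2 had 742 to 1032 normalized reads in all samples (log2 fold change -0.06, adjusted p = 0.887). Fat4, a receptor-ligand partner of the Dchs cadherins, had 1243, 2074 and 797 normalized reads in Control and 1978, 1933 and 1075 in Sox9cKO, and its groups overlapped. In each group its lowest value was replicate 3.

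**Figure D3:**
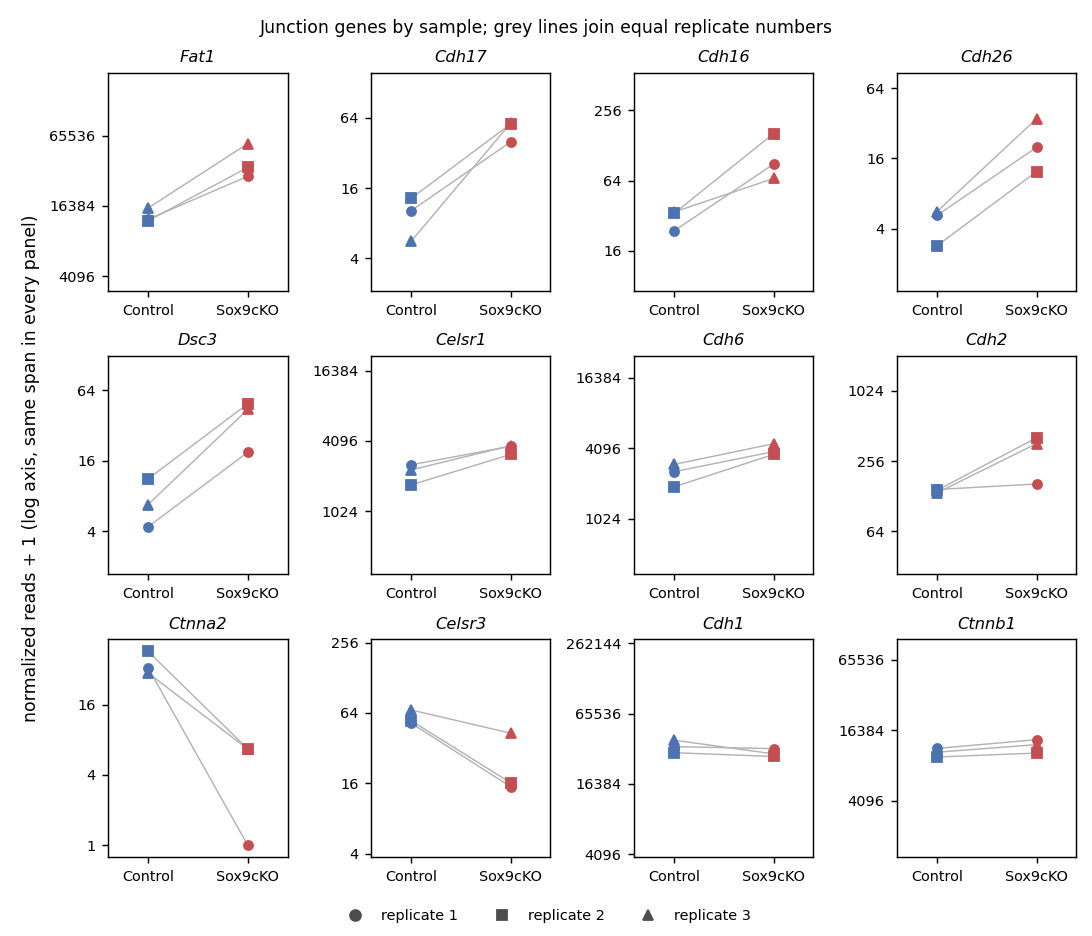
Normalized reads + 1 (log axis with the same span in every panel) of 12 members in each sample; blue is Control, red Sox9cKO, the marker shape gives the replicate number and grey lines join equal numbers. Fat1, Cdh17, Cdh16, Cdh26, Dsc3, Celsr1 and Cdh6 are higher in Sox9cKO along every line, Ctnna2 and Celsr3 lower. Cdh1 is lower and Ctnnb1 higher along every line too, by smaller steps and with groups that overlap.

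Within the type I cadherins, no member was called by limma and Cdh4 was called with the block. Cdh1 had 34200, 30315 and 38816 normalized reads in Control and 32842, 28154 and 29645 in Sox9cKO. The groups overlapped (log2 fold change -0.18, SE 0.14, limma adjusted p = 0.559), and the 95% interval of the fold change ran from 0.70 to 1.11. Each Sox9cKO sample was below the Control sample of its number, and the block fit did not call it (adjusted p = 0.378). Cdh2, which mesenchymal cells and also hepatocytes carry, had 145, 143 and 136 normalized reads in Control and 162, 405 and 361 in Sox9cKO. Its Control values were close together, and Sox9cKO replicate 1 lay just above them while replicates 2 and 3 were far above. Its mean was 2.19-fold higher, which neither limma called (adjusted p = 0.174) nor the block fit (0.0714), while DESeq2 did (0.0276).

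Of the normalized reads of Cdh1 and Cdh2 together, Cdh2 gave 0.423%, 0.469% and 0.349% in Control and 0.491%, 1.42% and 1.20% in Sox9cKO (exact permutation test, two-sided, p = 0.1, the smallest possible). The E-cadherin transcript thus outnumbered that of N-cadherin in all samples. Beside this, the 10 hepatocyte markers summed to 19081 to 30386 normalized reads in Control and 25390 to 39406 in Sox9cKO, with 3 of 10 higher and none lower by limma. Alb gave most of this sum in every sample, and its groups overlapped (limma adjusted p = 0.380). The genes called were Serpina1c, Tat and Fgb. Apoa1, Cps1, Cyp3a11, Cyp2e1, Ass1 and Ttr had overlapping groups, with a lower mean in Sox9cKO for Ttr. The 6 mesothelial markers summed to 954 to 983 and to 1158 to 2173, with 1 of 6, Msln, higher by limma, and none of either list was at 0. Msln alone made the mesothelial sum higher: without it the other 5 summed to 586 to 710 in Control and 331 to 509 in Sox9cKO. Gpm6a gave most of this remaining sum in every sample, so the sum mainly follows that gene. The directions were mixed: Upk3b and Gpm6a had lower values in Sox9cKO without overlap, and Wt1 had higher values without overlap. Lrrn4 and Upk1b had overlapping groups. The 7 measured of 8 leukocyte markers summed to 1060 to 1172 in Control and to 1511 to 1842 in Sox9cKO, and none was at 0. Csf1r gave most of this sum in every sample and was the only one of the 7 with a higher mean (limma adjusted p = 0.0142). Ptprc and Cd68 had lower values without overlap. Adgre1, Clec4f, Cd79a and Itgam had lower means with overlapping groups. The 10 stellate and fibroblast markers summed to 3395 to 4008 and to 4058 to 5360, with no call among the 9 tested and none at 0. Their directions were mixed: 6, 3 and 8 of the 10 were higher in Sox9cKO in replicates 1, 2 and 3. Reln, Col1a1 and Col3a1 had higher means and Des, Dcn, Lrat and Hand2 lower ones, all with overlapping groups. The part of these cells in the values of Cdh2 was not tested.

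P-cadherin (Cdh3), found in basal layers and placenta, had 824 to 1344 normalized reads (log2 fold change -0.02, adjusted p = 0.975). R-cadherin (Cdh4) had 67.2, 125 and 53.0 normalized reads in Control and 176, 211 and 108 in Sox9cKO. Each Sox9cKO sample was above the Control sample of its number although the groups overlapped, and Cdh4 was called with the block (adjusted p = 0.0265) and not without it (0.211). Among the type II cadherins, Cdh6 (K-cadherin, known from kidney tubules) had 2577, 1914 and 2977 normalized reads in Control and 3833, 3624 and 4476 in Sox9cKO. The groups did not overlap, the mean was 1.60-fold higher, and the adjusted p was 0.102 in limma and 0.0149 with the block. Cdh24 and Cdh11, the other tested members of this class, had log2 fold changes of 0.12 and -0.23 and overlapping groups. The remaining 5 type II genes stayed under the level for testing, with at most 7 reads in any sample.

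Of the 5 cadherins outside these classes, Cdh17 rose by limma and Cdh16, Cdh26 and Cdh13 rose with the block. Cdh17 (liver-intestine cadherin), a cadherin with a short cytoplasmic tail that does not bind catenins, had 9.25, 12.1 and 4.61 normalized reads in Control and 38.8, 55.8 and 56.6 in Sox9cKO. The lowest Sox9cKO value lay far above the highest Control value, and the mean was 5.83-fold higher (log2 fold change 2.48, SE 0.40, 95% interval 2.89- to 10.8-fold, limma adjusted p = 0.0235). These values rest on 4 to 59 reads per sample. Cdh17 was called in each of the 9 alternative fits of the 6 samples in which it was tested, and in 1 of 6 fits without a sample, the one without Control replicate 2; in the other 5 its adjusted p was between 0.0526 and 0.0887.

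Cdh16 (kidney-specific cadherin), the closest relative of Cdh17, had 22.7, 32.5 and 33.4 normalized reads in Control and 87.6, 161 and 65.7 in Sox9cKO. The groups did not overlap and the mean was 3.54-fold higher, with adjusted p = 0.0599 in limma and 0.0225 with the block. Cdh26, a cadherin of surface epithelia that also binds integrins, had 4.20, 1.86 and 4.61 normalized reads in Control and 18.9, 11.3 and 34.0 in Sox9cKO. Again every Sox9cKO value was higher, 6.02-fold by the means, with adjusted p = 0.0833 in limma and 0.0275 with the block, on 2 to 30 reads per sample.

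Cdh13 (T-cadherin), which is tied to the membrane by a lipid anchor, binds adiponectin and is common in vessels, had 128, 275 and 104 normalized reads in Control and 457, 451 and 229 in Sox9cKO. The groups overlapped, each Sox9cKO sample was above its Control sample, and Cdh13 was called with the block (adjusted p = 0.0237) and not without it (0.189). The summed endothelial markers stood in the same pairs at ratios of 2.51, 1.02 and 3.59 (Sox9cKO over Control, replicates 1 to 3), and 10, 5 and 10 of the 10 markers were higher; the part of endothelial RNA in the values of Cdh13 and Cdh4 was not tested. Cdh23, a cadherin of hair cell tip links, had 7.57 to 21.9 normalized reads and overlapping groups.

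The 250 bases before the annotated start are shown for Fat1, Cdh6 and Cdh26, to set the sequence before the most abundant member that rose beside those of less abundant ones and to mark the motif of the deleted factor's family. Members called in the block fit, in edgeR with the block and in DESeq2 were considered. Of these, Cdh17, Cdh16 and Celsr1 had no window in the RefSeq table. Genes on the chromosome that holds the protocadherin clusters were left out, Dsc3 among them. The Ctnna2 window was not printed because 32 of its bases belong to annotated exons, above the limit set for printing. The windows are from RefSeq on GRCm38.p6, an older build than the GRCm39 of the submitters' processing notes, and are written 5' to 3' on the strand of the gene. Capitals mark the SOX-type cores ACAAT and ACAAAG, which were searched on both strands and found here on the strand shown.
Fat1, chr8:44949958-44950207, plus strand: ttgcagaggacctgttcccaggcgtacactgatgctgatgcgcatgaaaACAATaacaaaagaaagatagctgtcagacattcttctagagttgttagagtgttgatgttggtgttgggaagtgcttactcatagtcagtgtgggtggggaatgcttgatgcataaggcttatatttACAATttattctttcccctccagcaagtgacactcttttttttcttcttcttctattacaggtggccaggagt
Cdh6, chr15:13173676-13173925, minus strand: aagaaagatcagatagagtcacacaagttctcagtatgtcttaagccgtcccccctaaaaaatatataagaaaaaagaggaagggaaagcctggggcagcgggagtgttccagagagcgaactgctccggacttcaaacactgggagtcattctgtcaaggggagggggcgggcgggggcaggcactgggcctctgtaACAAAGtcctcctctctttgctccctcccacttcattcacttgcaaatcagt
Cdh26, chr2:178430265-178430514, plus strand: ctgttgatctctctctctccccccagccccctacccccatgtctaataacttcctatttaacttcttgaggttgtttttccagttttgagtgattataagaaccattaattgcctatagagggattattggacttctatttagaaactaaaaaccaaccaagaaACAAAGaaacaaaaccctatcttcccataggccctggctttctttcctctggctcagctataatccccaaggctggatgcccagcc

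The Fat1 window holds ACAAT at 201 and 73 bases before the start, the Cdh6 window ACAAAG at 52 and the Cdh26 window ACAAAG at 86 bases before it, counted to the first base of the match. None of the matches overlap. The last 12 bases before the Fat1 start belong to an exon of a longer annotated transcript that begins 14.8 kb upstream. The rest of the Fat1 window, with both ACAAT matches, lies in an intron of that transcript. The nearest annotated Cdh26 start in GENCODE M21 lies 16 bases from that of RefSeq. Such matches are common: of 32851 windows of this length in the table, 27.7% hold ACAAT, 16.5% ACAAAG and 38.8% either. Windows were listed for 30 of the 97 members, 37 windows in all, of which 10 (27.0%) hold either core. The Ctnna2 window, not shown, holds neither. A match describes the letters only.

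In the desmosome, the abundant desmoglein showed overlapping groups and a minor desmocollin rose in the block fit. Dsg2, the desmoglein of simple epithelia, had 19974, 18354 and 22358 normalized reads in Control and 20733, 27278 and 28226 in Sox9cKO (log2 fold change 0.32, SE 0.16, limma adjusted p = 0.353). All 3 pairs were higher in Sox9cKO, and the block fit did not call it (adjusted p = 0.179). Its partner Dsc2 had 929, 824 and 711 normalized reads in Control and 943, 1503 and 1417 in Sox9cKO. The Dsc2 groups did not overlap, though Sox9cKO replicate 1 lay just above the highest Control value, and the 1.57-fold higher mean was not called (adjusted p = 0.167, and 0.0989 with the block).

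Dsc3, the desmocollin of stratified epithelia, had 3.36, 10.2 and 5.76 normalized reads in Control and 17.9, 48.2 and 43.0 in Sox9cKO. No values overlapped, and the mean was 5.64-fold higher, with adjusted p = 0.0734 in limma and 0.0135 with the block, on 4 to 51 reads per sample. Dsg4, known from the hair follicle, had 11.8, 11.1 and 28.8 normalized reads in Control and 3.98, 6.62 and 2.26 in Sox9cKO. Its values did not overlap either and it was not called (log2 fold change -1.74, adjusted p = 0.158). The closely similar mouse genes Dsg1a, Dsg1b and Dsg1c had log2 fold changes of 0.72, -0.62 and 0.78 without a call, and how reads that match several of them were counted is not given in the sources used here, so their values are uncertain. Dsg3 and Dsc1, of stratified epithelia, were under the level for testing.

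The catenins that serve classical adherens junctions and desmosomes did not pass the test. Ctnnb1 had 11455, 9672 and 10633 normalized reads in Control and 13621, 10455 and 12345 in Sox9cKO. The groups overlapped (log2 fold change 0.19, adjusted p = 0.527), with a 95% interval of 0.91- to 1.43-fold. Each Sox9cKO sample was above the Control sample of its number, without a call in the block fit (adjusted p = 0.263). For Ctnna1 the interval was 0.86- to 1.32-fold (adjusted p = 0.784) and for Jup 0.69- to 1.29-fold (adjusted p = 0.874). The p120 catenin Ctnnd1, which holds cadherins at the membrane, had 1289, 1065 and 1306 normalized reads in Control and 893, 1044 and 895 in Sox9cKO. All its Sox9cKO values were lower, without a call (log2 fold change -0.37, adjusted p = 0.208), and 61.2% of its exon bases are shared with a read-through gene on the same strand in the reference annotation, so its level is uncertain.

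The neural catenins differed more. Ctnna2 (alpha-N-catenin) had 31.9, 44.5 and 28.8 normalized reads in Control and 0, 5.67 and 5.66 in Sox9cKO. Every Sox9cKO value was far below every Control value and replicate 1 had no read, and the mean was 9.29-fold lower (log2 fold change -3.33, SE 0.77), with adjusted p = 0.0752 in limma and 0.0252 with the block. Ctnnd2 (delta-catenin, a neuronal relative of p120) had 440, 543 and 551 normalized reads in Control and 543, 933 and 907 in Sox9cKO. Its groups overlapped, and it was called with the block (adjusted p = 0.0433), not without it (0.23), and not by edgeR with the block (0.0622) or DESeq2 (0.16). Beside Ctnna2 and Celsr3, the 5 measured of 8 glial and neural markers summed to 133 to 168 normalized reads in Control and 62.4 to 109 in Sox9cKO, and none of the 5 was at 0. Limma called none of the 3 tested; with the block Elavl3, a neuronal RNA-binding protein, fell (84.9, 118 and 93.3 normalized reads in Control, 19.9, 35.0 and 65.7 in Sox9cKO, adjusted p = 0.0498; 0.0443 in DESeq2 and 0.0602 in edgeR with the block). The part of neural cells in these values was not tested.

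The non-clustered protocadherins held no call in any of the 5 fits. Pcdh1, an epithelial protocadherin best known from the airway, was the most abundant, with 556, 775 and 986 normalized reads in Control and 1273, 608 and 880 in Sox9cKO, and its groups overlapped. Pcdh10, known from brain, had 14.3, 15.8 and 19.6 normalized reads in Control and 3.98, 2.84 and 7.92 in Sox9cKO. Its groups did not overlap and the mean was 3.37-fold lower, which was not called (adjusted p = 0.117, and 0.0654 with the block).

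Pcdh12 (also called VE-cadherin-2), a protocadherin of endothelium, had 290, 858 and 34.6 normalized reads in Control and 711, 818 and 131 in Sox9cKO. Pcdh17 had 314, 1258 and 57.6 in Control and 753, 838 and 188 in Sox9cKO. In both genes replicate 3 was the lowest sample of its group and the spread within a group exceeded the difference between the groups (adjusted p = 0.708 and 0.762). The summed endothelial markers rise in the order Control 3, Sox9cKO 3, Control 1, Sox9cKO 1, Control 2, Sox9cKO 2. Pcdh12 and Pcdh17 have the same order except that the top 2 samples change places. Of the 68 tested members, 14 (20.6%) had both replicate 3 samples as their lowest, against 11.2% of all tested genes; they were Fat4, Pcdh12, Pcdh17, Cdh11, 5 Pcdhb and 5 Pcdhg genes. How far endothelial RNA sets these values was not tested.

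**Figure D4:**
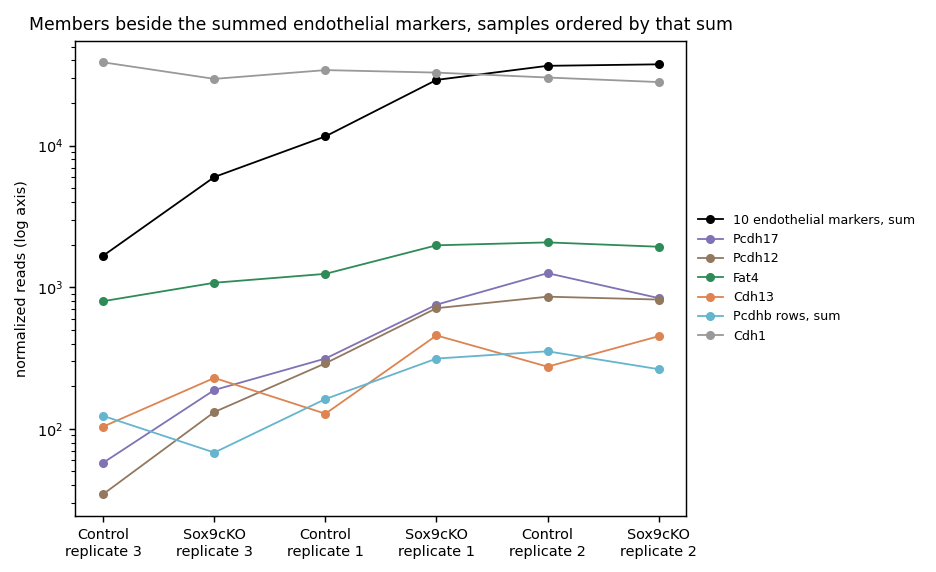
Normalized reads (log axis) in the 6 samples, ordered from left to right by the sum of 10 endothelial markers (black). Pcdh17 and Pcdh12 are more than 10-fold higher in the 3 samples on the right than in the leftmost sample, while Cdh1 lies between 28154 and 38816 throughout.

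The protocadherin clusters took in 44 members, 57 of the 97 members being on chromosome 18, where the clusters lie. All 22 Pcdhg genes were tested, 7 of 21 Pcdhb genes, and Pcdha8, the single alpha gene found, was not. No cluster gene was called in any of the 5 fits, none had groups that did not overlap, and none reached an unadjusted p under 0.05. The 22 Pcdhg genes summed to 1962, 3521 and 2099 normalized reads in Control and 2629, 3141 and 2184 in Sox9cKO. The 21 Pcdhb genes summed to 162, 353 and 123 in Control and to 313, 264 and 67.9 in Sox9cKO. In both sums the groups overlapped and the highest sample was Control replicate 2.

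Pcdhgc3, the most abundant cluster gene by reads and one of the C-type genes that are expressed more broadly, had 248, 684 and 205 normalized reads in Control and 523, 514 and 172 in Sox9cKO. Its values span more within each group than between the groups (log2 fold change 0.14, adjusted p = 0.939). Pcdhgb5 followed with log2 fold change 0.34 and Pcdhgb6 with -0.13, and among the Pcdhb genes Pcdhb14 had 0.19, Pcdhb22 -0.65 and Pcdhb16 -0.40, all without a call. The Pcdhg genes share their last exons, and in the reference annotation any pair has 2116 to 3154 exon bases in common. The largest overlap of a gene was 27.8% to 66.7% of its exon bases, so the split of reads between these genes is uncertain. How reads in the shared exons were counted is not given in the sources used here, so the sum is uncertain as well. Pcdha8 had 2.52, 3.71 and 1.15 normalized reads in Control and 0, 1.89 and 0 in Sox9cKO, too few to compare.

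The 29 members that were not tested had means of 1.55 to 8.36 normalized reads, and the tested member nearest to the limit had a mean of 10.7. They were 14 Pcdhb genes, Pcdha8 and 14 others, such as the muscle cadherin Cdh15, the testis and heart catenin Ctnna3, Fat2, Pcdh15, Pcdh18 and the type II cadherins Cdh7 to Cdh10 and Cdh19. Limma without the filter on low values called the same 2 members, Fat1 and Cdh17, so none of these 29.

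Genes that work with the members were read from 3 lists of partners, with 33 of 38 genes tested. Limma called 1 higher and 1 lower, against the 2.97% above. Clstn3, a calsyntenin with cadherin repeats that is known from synapses and fat cells, rose from 77.3, 71.5 and 89.9 normalized reads in Control to 372, 293 and 335 in Sox9cKO. The values lie far apart, 4.19-fold by the means (log2 fold change 2.05, limma adjusted p = 0.00327). Nectin4, an immunoglobulin-type adhesion molecule of adherens junctions, fell from 220, 179 and 180 normalized reads to 79.6, 89.8 and 96.2, a 2.18-fold lower mean with no overlap (adjusted p = 0.0213).

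With the block, 5 of 33 partners were called (3 higher, 2 lower; 15.2%), against the 8.05% above. Adam10, the protease that sheds E-cadherin and other cadherins, had 1545, 1504 and 1414 normalized reads in Control and 2321, 2168 and 1930 in Sox9cKO (adjusted p = 0.0631 in limma, 0.0244 with the block). Magi1, a scaffold at epithelial junctions, had 8529, 7356 and 9082 in Control and 5801, 5013 and 6631 in Sox9cKO (0.118 and 0.0226). Actn1, an actin crosslinker, had 4246, 4357 and 5554 in Control and 8028, 8804 and 6414 in Sox9cKO (0.0749 and 0.04998, and not called by edgeR with the block at 0.0710). In each of these the groups did not overlap. edgeR with the block called 4 partners, and DESeq2 called 6, the 5 of the block fit and Nectin1. The desmosomal plaque list held no call in 8 tested genes; its largest member, desmoplakin (Dsp), had 22229, 17453 and 21824 normalized reads in Control and 25412, 19939 and 30132 in Sox9cKO, with overlapping groups (adjusted p = 0.485).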

How the data were processed

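Total RNA of liver biliary epithelial cells was measured in 3 Control and 3 Sox9cKO libraries; the labels' protocols name a stranded kit, ribosomal RNA depletion and molecular identifiers, and the aligner, counter and strand setting are not given in the sources used here. The deposited table holds a signal per gene that the authors made by dividing read counts by one size factor per sample; DESeq2 1.36.0 and GRCm39 appear in the submitters' processing notes. Dividing by the smallest step gave whole reads for 100% of values (tolerance 0.001 reads). The lowest total of any gene over the 6 samples was 10 reads.

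The members and lists were chosen with earlier results of these data known. In R 4.3.3, limma 3.58.1 was fitted on log2(value + 1), letting the variance follow the level, to the 17153 genes whose mean reached 10 normalized reads; p-values were adjusted over all of them by Benjamini-Hochberg and called under 0.05. Adding 1 understates the fold change of low genes. Fold changes called by the means are ratios of group means. As alternatives, the pseudocount was set to 0.1 or 5, the filter was dropped or raised to 50, the scaling was changed to TMM or quantiles, a block for the replicate number was added, each sample was left out in turn, and recovered reads were tested with edgeR 4.0.16 (quasi-likelihood, with and without the block) and DESeq2 1.42.0. Deviations from the group means correlated at 0.207, 0.472 and 0.542 between samples of the same replicate number in the titles, so the numbers were taken to pair the samples. Simple 3 against 3 comparisons used exact permutation tests. The fits were tested on simulated reads that held no replicate effect, so these cannot judge the use of the block. Levels per kb used exon lengths of GENCODE M21.

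Genes were named by rule: those called by limma, 13 epithelial members whatever their values, members with an absolute log2 fold change of at least 1 and no overlap, members called by an alternative with all 6 samples, the 3 highest of each role group, and called partners. Cdh23, Celsr2, Dsg1a, Dsg1b, untested members and partners called only with the block, and Dsp, were named after their values were seen.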

Additional observations from a re-analysis of the deposited data

How the results depend on the processing

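Direction held in every alternative for 23 of the 36 named tested members; 13 changed sign in at least 1 of 16 alternatives, 23 of 565 values in all, and none of these was called. The cause was not tested. With all 6 samples, Pcdhb14 had -0.0181 in edgeR and -0.0115 in DESeq2 (log2), and Pcdhgc3 -0.0012 after quantile normalization. Leaving out 1 sample moved the log2 fold change of Pcdh1 from -0.0399 to 0.49, Ctnna1 from -0.0146 to 0.16, Jup from -0.26 to 0.0867, Cdh3 from -0.20 to 0.15, Cdh24 from -0.0562 to 0.26, Cdh11 from -0.62 to 0.0549, Fat4 from -0.0035 to 0.69, Pcdh17 from -0.35 to 1.86, Pcdh12 from -0.23 to 2.07, Pcdhb14 from -0.38 to 0.86, Pcdhb16 from -0.96 to 0.50, Pcdhgc3 from -0.20 to 0.67 and Pcdhgb6 from -0.34 to 0.12.

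Members called were 12 with limma and the replicate block (10 higher, 2 lower), 10 with edgeR and the block (9 and 1), 9 with DESeq2 (8 and 1), 1 higher at a minimum mean of 50, where Cdh17 was filtered out, and 1 lower (Ctnna2) beside the 2 higher with pseudocount 5. Quantile normalization called 3, all higher, adding Dsc3 (adjusted p = 0.0433). Both fits with the block kept the calls of Fat1 and Cdh17. Without 1 sample, 0 to 3 members were called, 0 to 2 higher and 0 to 1 lower: none without Control replicate 1, Control replicate 3 or Sox9cKO replicate 2, Cdh17 without Control replicate 2, Fat1, Cdh2 and Ctnna2 without Sox9cKO replicate 1, and Fat1 and Celsr3 without Sox9cKO replicate 3. Over all genes 1381 were called with the block (868 higher, 513 lower), 1160 with edgeR and the block (664 and 496), 1214 with DESeq2 (721 and 493), and 199 to 387 without 1 sample (152 to 274 higher, 47 to 113 lower). Higher calls made up 68.4% of limma calls and 57.2% of those of edgeR with the block. Fewer samples leave a weaker test. Cdh17, Dsc3, Cdh26 and Ctnna2 rest on under 60 reads in every sample.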
